A study of Homo sapiens with 12 samples.

Results

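The genes described here are those of paraspeckles and of their neighbour MALAT1: the long noncoding RNAs NEAT1 and MALAT1, and the messenger RNAs of 4 paraspeckle proteins, SFPQ, NONO, PSPC1 and RBM14. The 6 genes were taken by symbol from a deposited table of 58676 genes. That table holds 7 rows with these names, because a separate 95-base row is also called MALAT1, and this short row was at 0 in all 12 libraries. All 6 genes were above 0 in every library, and all 6 passed the filter used for testing, a mean FPKM of at least 1 (FPKM counts fragments per kilobase of gene, scaled to depth).

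The libraries were made from A549 cells, a long-established line derived from a human lung carcinoma. A control line (genotype label Control1) and 2 lines labelled NFE2L1 KO1 and NFE2L1 KO2 each received DMSO as vehicle or bortezomib, a proteasome inhibitor, at 200 nM for 4 h. NFE2L1 encodes a transcription factor that raises proteasome gene expression when the proteasome is inhibited. Each of the 6 groups had 2 libraries, 1 of them titled R2 and the other titled R1 in the knockout lines or left unnumbered in the control line. How each line was edited, and whether it was 1 clone, is not given in the sources used here, nor is it stated that the 2 libraries of a group came from separate cultures, so the p-values below measure only the spread between these libraries.

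NEAT1 is the architectural RNA of paraspeckles, nuclear bodies that assemble on its long transcript and that hold RNA-binding proteins and certain RNAs. A short NEAT1 transcript shares the start of the long one and ends in a poly(A) tail. MALAT1 is transcribed from a neighbouring gene and concentrates in nuclear speckles, which store splicing factors. SFPQ, NONO and PSPC1 form the DBHS family (named for Drosophila behaviour and human splicing), whose members pair with each other and coat NEAT1. RBM14 is a further RNA-binding protein that paraspeckles need to form. NEAT1 transcription is known to respond to cellular stress, including proteasome inhibition.

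The NEAT1 row spans chromosome 11 from 65422774 to 65445540 on the plus strand, and MALAT1 lies downstream on the same strand from 65497762 to 65506516. RBM14 is also on chromosome 11, from 66616582 to 66627347 on the plus strand. SFPQ was placed on chromosome 1 from 35176378 to 35193148 (minus strand), NONO on chromosome X from 71283192 to 71301168 (plus strand) and PSPC1 on chromosome 13 from 19674752 to 19783019 (minus strand). These are the positions in the deposited table. The submitters' processing notes name hg19, but 95.2% of the table's genes, and 5 of these 6, stand exactly where GENCODE release 29 puts them on GRCh38, the exception being MALAT1.

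The 3′ ends of the 2 long noncoding RNAs are shown because they are how both transcripts end without an ordinary poly(A) tail. Each long RNA is cut by RNase P just before a small tRNA-like RNA, and the new end is protected by a triple helix of U-rich and A-rich stretches. The 100 bases before the cut are given from GENCODE 29 transcripts on GRCh38, plus strand. Capitals mark only the longest stretch common to both and the common last bases.
NEAT1, chr11:65445441-65445540: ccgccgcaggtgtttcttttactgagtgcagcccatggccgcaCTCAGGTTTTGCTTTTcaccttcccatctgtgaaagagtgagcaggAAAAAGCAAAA
MALAT1, chr11:65506017-65506116: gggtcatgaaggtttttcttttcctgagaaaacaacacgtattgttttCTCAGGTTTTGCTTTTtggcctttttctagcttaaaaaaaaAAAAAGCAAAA
mascRNA, released downstream of MALAT1, chr11:65506117-65506173: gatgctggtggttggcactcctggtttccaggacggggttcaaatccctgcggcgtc

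The longest stretch common to both ends, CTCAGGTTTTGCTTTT, is 16 bases long. Read on the transcript strand only, it occurred in the last 100 bases of 1 of 203677 annotated transcripts (4.91e-04%), the long NEAT1 transcript itself. The last 11 bases, AAAAAGCAAAA, were also the same in both. Of those transcripts 3 (0.00147%) end in them: the long NEAT1 transcript and transcripts of LPGAT1 and ZMYND8. The annotated MALAT1 transcript used here runs on past the cut through mascRNA, so neither count includes it. The longest run of A was 13 bases in MALAT1 and 5 bases in NEAT1. The 57-base mascRNA row had 0 reads in every library, and the matching 58-base row next to NEAT1 had at most 3 reads, in 1 library. The deposited NEAT1 length of 22767 bases covers the long transcript (22743 bases) and the short ones (3441 and 3524 bases) in 1 value, so the 2 forms cannot be told apart here.

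Depth was 13211608 to 23819258 reads per library, recovered from the FPKM values. NFE2L1 FPKM was 72.7 to 189 in the control line, 8.45 to 35.8 in KO1 and 18.6 to 50.8 in KO2, so its RNA was lower in every knockout library but still present. All 6 A549 markers were detected in every library. KRT8 was at 126 to 703 FPKM, KRT18 at 112 to 586, AKR1B10 at 545 to 1597 and AKR1C1 at 6.23 to 54.3. EPCAM, at 1.25 to 10.6, and CDH1, at 1.42 to 9.53, were low. Of 8 markers of other cell types, 7 stayed at or below 0.225 FPKM, and COL1A1, a collagen gene, ranged from 1.42 to 23.3 FPKM. The summed FPKM of these 8 was 1.63 to 5.41 in the vehicle libraries and 6.17 to 23.5 in the bortezomib libraries, and its part in the bortezomib results was not tested. In limma over the mean of the 3 lines, where 11.6% of all tested genes were called, COL1A1 rose by 1.77 (adjusted p = 0.00623). Of the 6 A549 markers 1 was called, EPCAM, which rose by 0.93 (adjusted p = 0.0353). Mitochondrially encoded genes took 12.3% to 19.3% of the reads in the R2 libraries and 5.44% to 6.80% in the others, which sets the R2 libraries apart.

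NONO had the highest median FPKM over the 12 libraries, at 107. It was followed by SFPQ at 53.6, MALAT1 at 37.1, NEAT1 at 21.2, RBM14 at 18.0 and PSPC1 at 5.99. NONO was above SFPQ, MALAT1 above NEAT1 and RBM14 above PSPC1 in 12 of 12 libraries, although in the unnumbered control vehicle library MALAT1 and NEAT1 were both 21.3. SFPQ exceeded MALAT1 in only 7 of 12 and NEAT1 exceeded RBM14 in only 6 of 12, so these neighbours did not keep an order. Between 2964 and 29362 reads lay behind each NEAT1 value and between 2496 and 21585 behind each MALAT1 value. PSPC1 had the fewest reads, 353 to 1220. Counting error on NEAT1 was small against its spread between libraries: its share of reads in the KO1 vehicle R1 library was 0.0214% (95% binomial interval 0.0206% to 0.0221%), against 0.0793% (0.0780% to 0.0806%) in the R2 library of that group. These intervals cover counting error only.

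**Figure D1:**
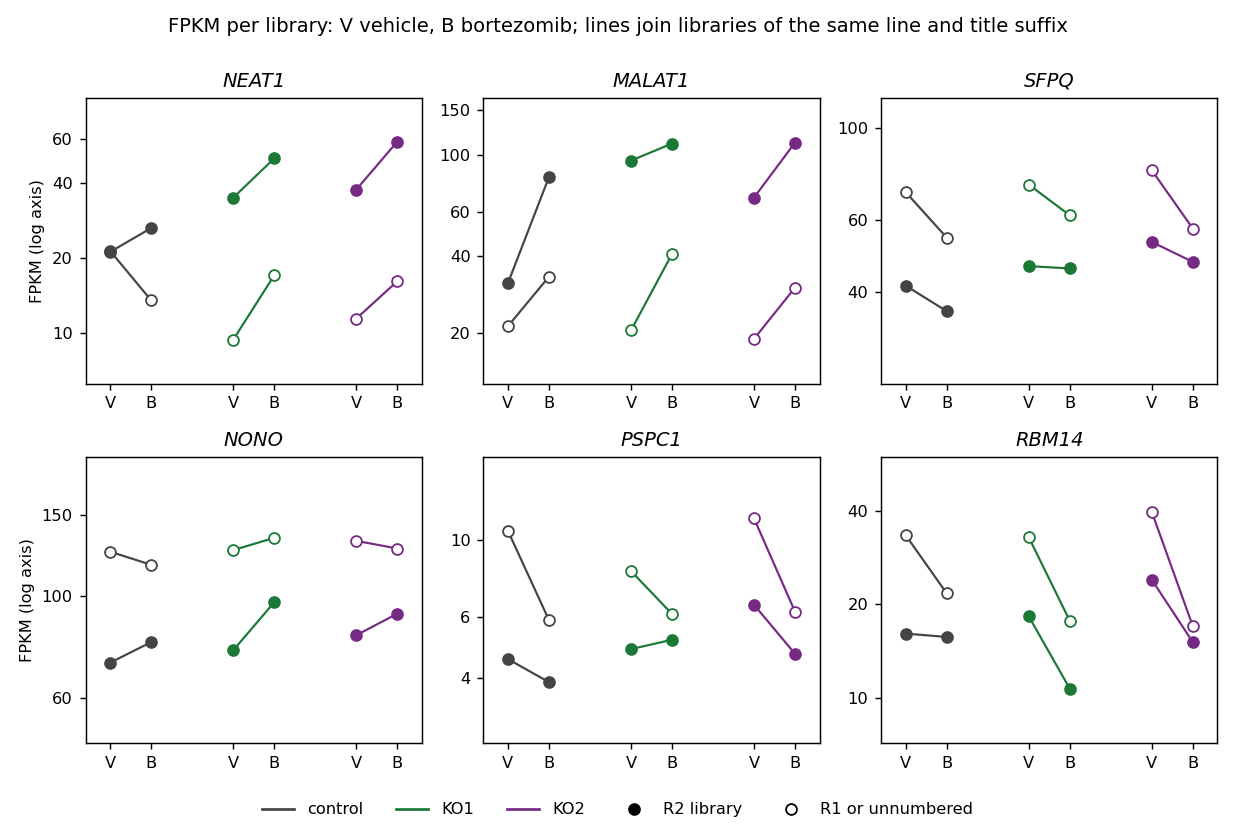
FPKM of the 6 genes in each of the 12 libraries (log axis, 1 panel per gene), with vehicle (V) and bortezomib (B) libraries of the same line and title suffix joined by a line. Filled points are R2 libraries and open points R1 or unnumbered ones; MALAT1 lines all slope up, RBM14 and SFPQ lines all slope down, and the filled points lie high for MALAT1 and low for NONO.

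The first question was how the 6 genes responded to bortezomib. MALAT1 was higher with bortezomib in every line, and RBM14 and SFPQ were lower in every line. PSPC1 was lower in 5 of 6 pairs of libraries and NEAT1 was higher in 5 of 6, while NONO had no common direction. Without a term for the library pairs, limma called 0 of the 6 over the mean of the 3 lines, against 11.6% of all tested genes. With that term it called 5 of the 6, against 54.9% of all tested genes, and the calls for NEAT1 and SFPQ were lost in most fits that left out 1 library.

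MALAT1 stood at 21.3 and 31.4 FPKM in the control vehicle libraries, at 20.5 and 95.1 for KO1 vehicle, and at 19 and 68.1 for KO2 vehicle, the R2 library being second each time. After bortezomib the control line stood at 33.3 and 81.9, KO1 at 40.9 and 111, and KO2 at 30.2 and 112. Each bortezomib library was above the vehicle library of its own line and suffix, but the R2 vehicle libraries of KO1 and KO2 were above all 3 bortezomib libraries that are not R2, so the treatments overlapped. The ratio of bortezomib to vehicle was largest in the control R2 pair, at 2.61, and smallest in the KO1 R2 pair, at 1.17.

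NEAT1 FPKM in vehicle was 21.3 and 21.1 for the control line, 9.38 and 34.8 for KO1, and 11.4 and 37.5 for KO2. With bortezomib the control line gave 13.5 and 26.3, KO1 gave 17.0 and 50.0, and KO2 gave 16.1 and 58.4. The treatments overlapped, with the R2 libraries of both knockout lines highest. All 4 knockout pairs were higher with bortezomib, by 1.42-fold to 1.82-fold, a pattern that 30.5% of the 12194 tested genes also had. In the control line the R2 pair was 1.25-fold higher with bortezomib, whereas the unnumbered bortezomib library was at 0.635 of its vehicle value.

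RBM14 in vehicle stood at 33.4 and 16.1 FPKM for the control line, 32.9 and 18.3 for KO1, and 39.7 and 24.0 for KO2. With bortezomib it was at 21.7 and 15.7 in the control line, at 17.7 and 10.7 in KO1 and at 17.0 and 15.1 in KO2. All 6 pairs were lower, most in the KO2 R1 pair, at 0.428 of vehicle, and least in the control R2 pair at 0.976. The 3 vehicle libraries that are not R2 were above every bortezomib library, while the R2 vehicle libraries of the control line and KO1 overlapped with them. A readthrough gene, RBM14-RBM4, overlaps it over 10722 bases at a mean FPKM of 0.295, and how shared reads were assigned is not given in the sources used here.

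The DBHS messenger RNAs did not move together. SFPQ in vehicle was at 70.0 and 41.5 FPKM for the control line, 73.0 and 46.3 for KO1, and 79.1 and 53.0 for KO2, and with bortezomib at 54.3 and 36.0, 61.5 and 45.7, and 57.1 and 47.4. It was lower in 6 of 6 pairs, at 0.722 to 0.986 of the vehicle value. PSPC1 went from 10.6 and 4.53 to 5.87 and 3.89 FPKM in the control line, from 8.12 and 4.84 to 6.11 and 5.15 in KO1, and from 11.5 and 6.49 to 6.20 and 4.69 in KO2. Only its KO1 R2 pair was higher with bortezomib, and for SFPQ and PSPC1 alike the vehicle and bortezomib libraries overlapped. NONO went from 125 and 71.5 to 117 and 79.3 in the control line, from 126 and 76.1 to 134 and 96.9 in KO1 and from 132 and 82.1 to 127 and 91.5 in KO2, higher in 4 pairs and lower in 2.

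A common direction in all 6 pairs was not rare in these libraries. Of all tested genes, 24.8% were higher in all 6 pairs, as MALAT1 was, and 23.8% were lower in all 6, as SFPQ and RBM14 were.

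**Figure D2:**
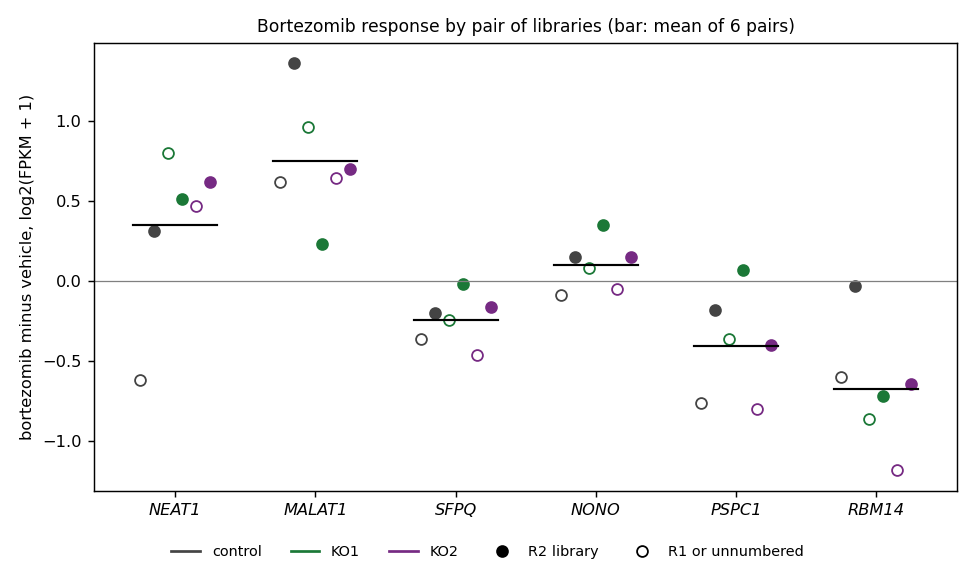
Bortezomib minus vehicle on the log2(FPKM + 1) scale for each pair of libraries of the same line and title suffix, with a bar at the mean of the 6 pairs. MALAT1 points lie between 0.23 and 1.36, RBM14 points between -1.18 and -0.03, and 1 NEAT1 point, the unnumbered control pair, lies at -0.62.

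The test was limma on log2(FPKM + 1) across all 12194 genes, with a Benjamini-Hochberg adjusted p under 0.05 as the call. Over the mean of the 3 lines, 0 of the 6 genes were called against 11.6% of all tested genes; 1 of the 6, RBM14, had an unadjusted p under 0.05, and voom on the recovered reads called that 1 as well (adjusted p = 0.0451). The difference was -0.67 for RBM14 (SE 0.28, adjusted p = 0.156) and 0.75 for MALAT1 (SE 0.55, adjusted p = 0.432). With the title suffix as a replicate block, the fold changes are the same and the errors smaller, and 54.9% of all tested genes were called. Most of the table was called with it, so 5 calls among 6 genes are not read as particular to these genes. With the unnumbered libraries treated as R1, 4 of the 6 were called, again where 54.9% of all tested genes were.

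With the block, MALAT1 rose by 0.75 (SE 0.12, limma adjusted p = 8.94e-04) and NEAT1 by 0.35 (SE 0.12, adjusted p = 0.0327). RBM14 fell by 0.67 (SE 0.11, adjusted p = 9.88e-04), PSPC1 by 0.40 (SE 0.11, adjusted p = 0.0103) and SFPQ by 0.24 (SE 0.09, adjusted p = 0.0394). NONO was at 0.10 (SE 0.09, adjusted p = 0.359). The calls for MALAT1, PSPC1 and RBM14 held in 12 of 12 blocked fits that each left out 1 library. NEAT1 kept its call in 5 of 12, with values from 0.19 to 0.50. It lost it without either control R2 library, either KO1 R1 library, either KO2 vehicle library or the KO2 bortezomib R2 library. Treating the unnumbered libraries as R1 in the block also lost it in limma (adjusted p = 0.196, with 54.9% of all tested genes called). Voom on the recovered reads, with that same block, did not call it either (adjusted p = 0.118, with 7192 of 12194 genes called). SFPQ kept its call in 2 of 12, without the KO1 vehicle R2 or the KO2 bortezomib R2 library, with values from -0.29 to -0.19, and lost it with quantile normalization and the block (adjusted p = 0.0772).

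Line by line, 0 of the 6 genes were called without the block, where 0.467% (control), 0.238% (KO1) and 0.320% (KO2) of all tested genes were, and none of the 6 had an unadjusted p under 0.05 in limma. Voom on the recovered reads also called 0 in each line. With the block the shares of all tested genes were 32.4%, 27.7% and 27.0%. In the control line 1 of the 6 was then called: MALAT1 rose by 0.99 (SE 0.22, adjusted p = 0.00877). In KO1 there were 2: NEAT1 rose by 0.65 (SE 0.21, adjusted p = 0.0429) and RBM14 fell by 0.79 (SE 0.20, adjusted p = 0.0179). In KO2 there were 3: MALAT1 rose by 0.67 (SE 0.22, adjusted p = 0.0463), PSPC1 fell by 0.60 (SE 0.18, adjusted p = 0.0401) and RBM14 fell by 0.91 (SE 0.20, adjusted p = 0.0103). Leaving out 1 library at a time, the control call for MALAT1 held in 10 of 12 fits and was lost without either control R2 library. The KO1 calls held in 6 of 12 for NEAT1 and 9 of 12 for RBM14. The KO2 calls held in 8 of 12 for MALAT1, 8 of 12 for PSPC1 and 9 of 12 for RBM14. Each lost call was lost without a library of its own line, except that NEAT1 in KO1 was lost also without a KO2 vehicle library. With the unnumbered libraries treated as R1, NEAT1 in KO1 (adjusted p = 0.218) and MALAT1 in KO2 (adjusted p = 0.135) were not called. The same 2 calls were lost in voom, whose block also took the unnumbered libraries as R1 (adjusted p = 0.111 and 0.0607). Limma with the title-suffix block and without mitochondrial genes lost them too (adjusted p = 0.0521 and 0.0533).

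These calls differ between lines, yet the differences between lines were not themselves called. For NEAT1 the bortezomib difference in the control line was -0.16 (SE 0.21 with the block, adjusted p = 0.591). Its response averaged over KO1 and KO2 exceeded that of the control line by 0.76 (SE 1.03, limma adjusted p = 1), and with the block the same 0.76 had an SE of 0.25, an unadjusted p of 0.0148 and an adjusted p of 0.318. For RBM14 the difference was -0.53 (adjusted p = 1, or 0.476 with the block). Over all tested genes this interaction gave 0 calls with limma, with or without the block (0% of genes); 115 genes without the block and 1305 with it had an unadjusted p under 0.05. Voom, with the unnumbered libraries treated as R1 in its block, called 80 genes, of which 0 were among the 6. Limma with that block called 0 genes, and so did voom when the block was left out.

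The balance between the 2 long noncoding RNAs, which does not depend on how a library is scaled, was compared next. In the control line the ratio of NEAT1 to MALAT1 FPKM was 1 and 0.672 with vehicle, and 0.407 and 0.321 with bortezomib. KO1 had 0.457 and 0.366 with vehicle and 0.417 and 0.449 with bortezomib, and KO2 had 0.598 and 0.551 against 0.534 and 0.523. The control vehicle libraries held the 2 highest ratios of the 12 and the control bortezomib libraries the lowest and the third lowest. On the log2 scale the change was -1.30 and -1.07 in the control pairs, -0.13 and 0.29 in KO1 and -0.16 and -0.08 in KO2. Over all 6 pairs the mean change was -0.41 (SD 0.63, n = 6), lower in 5 of 6, which did not pass an exact two-sided sign-flip permutation test (p = 0.2188; the smallest possible is 0.03125). The contrast between control and knockout lines in this ratio was seen after the values were known and was not tested.

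Within the DBHS family NONO took a larger share with bortezomib. It made up 58.0% to 60.9% of the summed FPKM of the 3 genes in the 6 vehicle libraries and 63.7% to 66.8% in the 6 bortezomib libraries, with no overlap. The SFPQ share was 34.0% to 37.4% in vehicle and 29.9% to 33.0% with bortezomib, also without overlap. Both are shares of the same sum, of which PSPC1 took only 3.03% to 5.18%, so they are not separate results. How often other genes separate the treatments in this way was not examined. The log2 ratio of NONO to SFPQ was higher in 6 of 6 pairs, by 0.27 to 0.42, with a mean of 0.34 (SD 0.05, n = 6). This ratio was chosen after its values were seen, so it is given as a description with no test, and other gene pairs were not examined. The difference was 0.35, 0.37 and 0.31 in the R2 pairs and 0.27, 0.33 and 0.42 in the others.

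**Figure D3:**
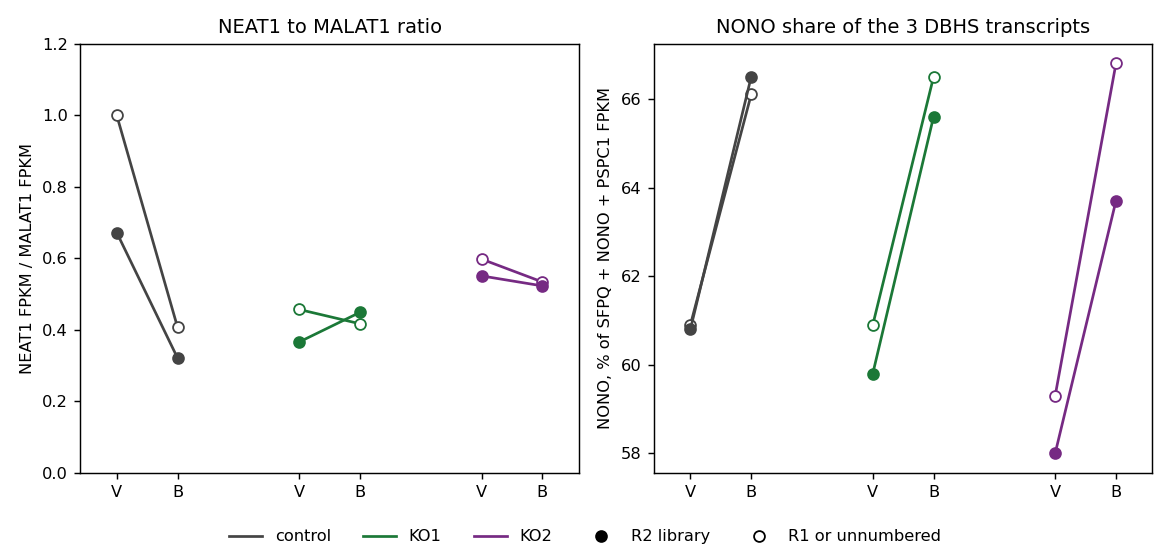
Left, the ratio of NEAT1 to MALAT1 FPKM in each library; right, NONO as a percentage of the summed FPKM of SFPQ, NONO and PSPC1 (this axis does not start at 0), with vehicle (V) and bortezomib (B) libraries of a pair joined. The ratio on the left goes from 1 and 0.672 to 0.407 and 0.321 in the control line, and the NONO share lies at 60.9% or below in vehicle and at 63.7% or above with bortezomib.

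The second question was whether loss of NFE2L1 changed these genes. The library titles matter here, because for NEAT1 the answer in vehicle had opposite signs in the 2 libraries. Among the R1 and unnumbered libraries, NEAT1 in vehicle was lower than control, with differences of -1.10 in KO1 and -0.85 in KO2 on the log2(FPKM + 1) scale. Among the R2 libraries it was higher, by 0.70 in KO1 and 0.80 in KO2. With bortezomib both sets agreed in sign: the differences were 0.31 and 0.90 in KO1 and 0.24 and 1.12 in KO2, with the R2 value second.

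MALAT1 in vehicle was close to control among the R1 and unnumbered libraries, at -0.05 for KO1 and -0.16 for KO2, and higher among the R2 libraries, by 1.57 and 1.09. The bortezomib values were 0.29 and 0.44 for KO1, and -0.13 and 0.44 for KO2. The knockout R2 libraries thus held the highest NEAT1 and MALAT1 values in each treatment. For SFPQ and NONO every knockout library was above the control library of its set, by 0.01 to 0.39, in both treatments. Both knockout lines were compared with the same control libraries, and how many tested genes had this pattern was not counted. By group means without a block, 6372 (KO1) and 7300 (KO2) of 12194 tested genes were above control in vehicle. In bortezomib 6716 and 6828 were.

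Without the block, limma called 0 of the 6 genes in any comparison of a knockout line with the control line, where 0.213% (KO1) and 0.230% (KO2) of all tested genes were called in vehicle and 0.107% and 0.0656% in bortezomib; none of the 6 had an unadjusted p under 0.05, and voom called 0. With the block by title suffix, 5.95% and 4.91% of all tested genes were called in vehicle and 7.54% and 4.81% in bortezomib. Of the 6 genes, MALAT1 was then called in KO1 vehicle (1.21, SE 0.25, adjusted p = 0.0259), and NEAT1 in bortezomib in KO1 (1.22, SE 0.24, adjusted p = 0.0190) and in KO2 (1.30, SE 0.24, adjusted p = 0.0199). In KO2 vehicle the block gave 0 calls of 6, with NEAT1 and MALAT1 at an unadjusted p under 0.05. R1 titles occur only in the knockout lines and unnumbered titles only in the control line, so this block ties the lines mainly through the R2 libraries, where both RNAs were higher in the knockout lines. When the unnumbered libraries were treated as R1, 0 of the 6 were called in all 4 comparisons, in which 7.96% and 4.89% (vehicle) and 12.8% and 6.47% (bortezomib) of all tested genes were. MALAT1 in KO1 vehicle then had an unadjusted p under 0.05. Its difference there was 0.76, in this setting and without the block. In bortezomib the NEAT1 differences were 0.61 in KO1 and 0.68 in KO2, also in both settings. The title-suffix values of 1.22 and 1.30 for NEAT1 were above both library differences of their line (0.31 and 0.90 in KO1, 0.24 and 1.12 in KO2).

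The R2 library and the other library of each group were compared next. MALAT1 was higher in the R2 library in 6 of 6 groups, by 0.54 to 2.16 on the log2(FPKM + 1) scale (mean 1.51). NEAT1 was higher in 5 of 6 (mean 1.27), the exception being the control vehicle group at -0.02. The protein genes all went the other way in 6 of 6 groups, with means of -0.54 for SFPQ, -0.62 for NONO, -0.58 for PSPC1 and -0.64 for RBM14. The exact two-sided sign-flip permutation p was 0.03125, the smallest that 6 groups allow, for each gene except NEAT1 (p = 0.06250).

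Of all tested genes, 25.2% were higher in the R2 library in all 6 groups and 44.2% were lower in all 6, so the direction of the protein genes was a common one. The median over all tested genes was -0.21, over protein-coding genes -0.28 and over 258 lincRNA genes 0.14, all below the means of NEAT1 and MALAT1. The 16 mitochondrially encoded genes were higher in all 6 groups, with a median of 1.30. R2 thus coincides with more mitochondrial reads and with higher NEAT1 and MALAT1, and what the suffix stands for beyond a second library is not given in the sources used here.

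**Figure D4:**
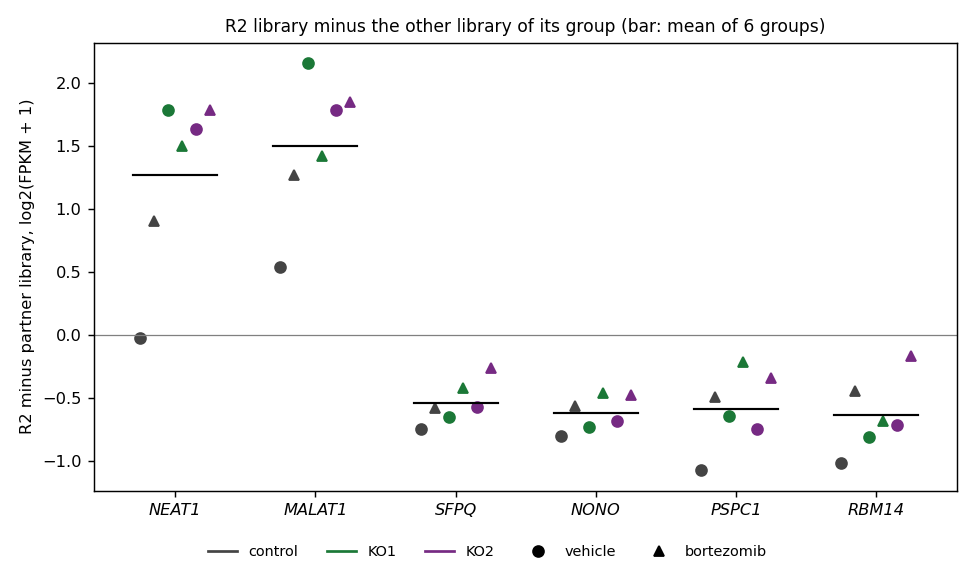
R2 library minus the other library of its group, on the log2(FPKM + 1) scale, for 3 lines with vehicle (circles) or bortezomib (triangles), with a bar at the mean of the 6 groups. MALAT1 points lie between 0.54 and 2.16, and the points of SFPQ, NONO, PSPC1 and RBM14 all lie below 0.

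NEAT1 and MALAT1 followed each other across libraries. As a description over 12 libraries that share depth and suffix, their Pearson r on log2(FPKM + 1) was 0.90, and 0.68 after the mean of the R2 libraries and that of the others were subtracted. After that subtraction NEAT1 was about as close to NONO, at 0.67 (-0.65 before it), and MALAT1 and NONO were at 0.58. SFPQ and PSPC1 remained close, at 0.88, and PSPC1 and RBM14 were at 0.79. The value for NEAT1 and MALAT1 was thus not the highest among these genes. The gene most like NEAT1 over the 12 libraries was PNN, which encodes a nuclear speckle protein, at r = 0.97 and at 0.91 after the subtraction. MC1R (0.96), RP11-295D4.3 (0.96), CYP2D8P (0.95) and LTB4R (0.95) came next, and after the subtraction RNU6-863P (0.92), ALG13 (0.90), MC1R (0.88) and uc_338 (0.88). These are the highest values picked from all tested genes. RNU6-863P and uc_338 were low, at 0 to 3.92 and 0 to 5.85 FPKM. For MALAT1 the closest were LRP5L (0.98), FAM193B, EEF1D, CLUHP3 and GIGYF1 (0.97 each), and after the subtraction TRMO (0.98), SNRPGP15 and ZNF783 (0.96 each), EEF1D (0.95) and FBXL12 (0.94).

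The wider paraspeckle proteome gave a mixed picture under bortezomib. Of 36 further paraspeckle-associated genes, 31 were tested. Over the mean of the lines, 2 rose and 1 fell without the block, and 5 rose and 5 fell with it. Of all tested genes, 4.85% rose and 6.76% fell without the block, and with it 27.0% rose and 27.9% fell. The list's median change was -0.06 and that of all tested genes -0.01. The 3 called without the block in limma were AKAP8L (0.78, adjusted p = 0.00979), the transcription factor gene RUNX3 (0.85, adjusted p = 0.0155) and AHDC1 (-0.94, adjusted p = 0.00464). With the block SS18L1 rose by 0.70, and the splicing regulators HNRNPF and HNRNPUL1 fell by 0.61 and 0.43.

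Of 22 nuclear speckle genes, 21 were tested, and 1 was called without the block, CLK1, which encodes a kinase of splicing factors (1.05, limma adjusted p = 0.0368). With the block 6 rose and 4 fell, where 27.0% and 27.9% of all tested genes did, and the list's median over its 21 tested genes was 0.04. TRA2A rose by 0.57 and ACIN1 by 0.31, and SRSF2 fell by 0.61, U2AF2 by 0.39 and SRSF1 by 0.32. Of 25 other long noncoding RNA genes, 18 were tested, with a median of 0.49. Without the block 1 rose, EPB41L4A-AS1 (1.44, limma adjusted p = 7.92e-04), and 1 fell, DANCR (-0.71, adjusted p = 0.0439). With the block 11 rose and 4 fell, against the same 27.0% and 27.9% of all tested genes, among them MEG3 and the snoRNA host SNHG1 (up by 1.12 and 0.73) and FGD5-AS1 and TUG1, which fell by 0.72 and 0.45. MALAT1, at 0.75, thus lay above the median of these other long noncoding RNAs and NEAT1, at 0.35, below it.

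Genes next to NEAT1 and MALAT1 did not share a direction. Of 34 genes within 200 kb, 12 were tested, and their limma adjusted p-values without the block ran from 0.0640 to 0.710. With the block, where 27.0% of all tested genes rose and 27.9% fell, 4 of the 12 rose, among them DPF2 (0.76), the NF-kappaB subunit gene RELA (0.73) and SSSCA1 (0.49), and 4 fell, LTBP3 by 0.67, EHBP1L1 by 0.64, SLC25A45 by 0.45 and PCNXL3 by 0.41. FRMD8 (0.15), MAP3K11 (0.21), SIPA1 (0.20) and CMB9-22P13.1 (-0.38) were not called. The small RNA rows inside NEAT1 and MALAT1, and AP000769.7 on the strand opposite MALAT1, were at 0 in every library.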

How the data were processed

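RNA was measured in 12 A549 libraries. The authors deposited FPKM values and a gene length in bases (a number other than expression) for 58676 genes. The submitters' processing notes name CASAVA, STAR 2.5, HTSeq 0.6.1, DESeq2 and hg19; strand and counting rules are not given in the sources used here. Deposited FPKM multiplied by length gave whole reads for all values within 0.01 of a read, which gave depth. Groups came from the labels.

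limma 3.58.1 in R 4.3.3 (1 mean per group, 12 libraries, mean-variance trend) was fitted to log2(FPKM + 1) for the 12194 genes whose mean FPKM reached 1, with Benjamini-Hochberg adjustment and a threshold of 0.05. This scale understates changes of low genes. The alternative with a replicate block is printed beside it. Over 15 pairs of groups, the R2-minus-partner differences correlated at 0.70 to 0.89 (median 0.81), so the R2 libraries shared a shift. This cannot show which libraries were prepared together, so pairing by title suffix is an assumption, also for the unnumbered libraries. The R2 differences and the NEAT1 to MALAT1 ratio used exact sign-flip tests in Python 3.11.15 (numpy 2.4.6, pandas 2.3.3, scipy 1.17.1). The fits were also run on simulated data, for the bortezomib difference over the mean of the lines only. The R1 and unnumbered libraries had the same shift there, so the comparisons with control were not tested by it.

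Named genes were the 6 genes, up to 3 rises and 3 falls per list with the block plus any called without it, tested genes within 200 kb, and the 5 genes most like NEAT1 and MALAT1; 1 gene under this rule is not reported here. The genes and lists (further paraspeckle genes, nuclear speckle genes, other long noncoding RNAs, A549 and other cell markers) were chosen with earlier results of these data known. Alternatives covered the pseudocount, filter, scaling, voom (its block took the unnumbered libraries as R1), block and left-out libraries. Those combining quantile scaling or removal of mitochondrial genes with the block, the blocked fits leaving out a library, and the settings for the NONO to SFPQ ratio were chosen after seeing the data.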

Additional observations from a re-analysis of the deposited data

Results flagged for a closer look

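RBM14 in KO2 differed from control in opposite directions in the 2 treatments. With vehicle it was higher than control in both pairs of libraries, by 0.24 and 0.55 on the log2(FPKM + 1) scale, and with bortezomib it was lower in both (-0.33 and -0.05). The mean shift between treatments was -0.58 and was not tested for KO2 alone. The interaction over both knockout lines was -0.53, with limma adjusted p-values of 1 without and 0.476 with the replicate block.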

How the results depend on the processing

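The replicate block was the choice that moved the calls most; without it, among the settings run, only voom on the recovered reads called any of the 6 genes, RBM14 over the mean of the lines (1 gene). With the block by title suffix, the genes called of 6 numbered 1 for bortezomib in the control line, 2 in KO1, 3 in KO2 and 5 over the mean of the lines, and 1 each for KO1 against control in vehicle and in bortezomib and for KO2 in bortezomib. With the unnumbered libraries as R1 the 4 bortezomib counts were 1, 1, 2 and 4, and all counts against control were 0. In that setting 3968, 3403, 3291 and 6689 of 12194 genes were called for bortezomib. Voom with the unnumbered libraries as R1 gave 2, 1, 2 and 4, where it called 4807, 4071, 4213 and 7192 of 12194 genes. Quantile normalization with the title-suffix block gave 2, 2, 3 and 4, where 4146, 3671, 3584 and 6937 genes were called. Without mitochondrial genes and with that block the counts were 1, 1, 2 and 5, with 4036, 3448, 3304 and 6712 of 12178 genes called. The last 2 settings also gave 1 call in each of the same 3 comparisons with control. Leaving out each library with the block gave 0 to 1, 0 to 3, 0 to 4 and 3 to 5.

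NEAT1 in vehicle changed sign with the block by title suffix. In KO1 it went from -0.20 to 0.41 (0.46 with quantile normalization, 0.50 without mitochondrial genes), and in KO2 from -0.03 to 0.59 (0.62 and 0.63). With the unnumbered libraries as R1 it kept the values found without a block, -0.20 in KO1 and -0.03 in KO2. Leaving out 1 library in turn, without the block, gave ranges that crossed 0. Against control, NEAT1 ranged from -1.10 to 0.69 (KO1) and -0.85 to 0.80 (KO2) in vehicle and from -0.14 to 1.36 and -0.22 to 1.58 in bortezomib; MALAT1 ranged from -0.32 to 1.84 and -0.43 to 1.36 in vehicle and from -0.35 to 1.08 and -0.77 to 1.08 in bortezomib. For bortezomib against vehicle, NEAT1 ranged from -0.61 to 0.30 in the control line (-0.62 to 0.31 with the block), -0.24 to 1.55 in KO1 and -0.35 to 1.44 in KO2. MALAT1 ranged from -0.49 to 1.67 in KO1 and -0.25 to 1.60 in KO2. PSPC1 ranged from -1.0 to 0.07 in the control line and -0.46 to 0.18 in KO1 (-0.33 to 0.04 with the block), RBM14 from -0.82 to 0.19 in the control line, and NONO over the mean of the lines from -0.04 to 0.23. Libraries of 1 group differ most by suffix, so an unpaired fit short of 1 library compares unequal mixes of R2 and other libraries. The NONO to SFPQ ratio kept its sign without each pair, which was certain beforehand because all 6 pairs were higher. Lone libraries were assumed to vary like the other groups.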
